A study of Mus musculus with 9 samples.

Results

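Interleukin-15 (IL-15) was compared with interleukin-2 (IL-2) at a dose of 500 nM and a time of 4 h, the highest dose and the earlier time of the series. The comparison rests on 2 of the 9 RNA sequencing libraries, 1 per cytokine, chosen by their labelled cytokine, dose and time. All 9 libraries came from spleen CD8+ T cells of female C57BL/6 mice aged 6 weeks, with no genetic change named. The other 7 are 1 library of untreated cells, both cytokines at 1 nM for 4 h and for 24 h, and both at 500 nM for 24 h. RNA of 3 identically treated samples was pooled for each library, so no condition was repeated, nothing below carries a test between conditions, and every interval is a 95% counting interval of the reads. The reads carry no molecular identifiers, and PCR copies are not separate molecules, so these intervals hold counting error only.

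IL-2 and IL-15 are cytokines that sustain T cells and natural killer cells. Both bind the receptor chains encoded by Il2rb and Il2rg, and each has a private chain, Il2ra for IL-2 and Il15ra for IL-15, where IL-15 is usually presented by Il15ra on a neighbouring cell. The shared chains signal through the kinases JAK1 and JAK3 to the transcription factor STAT5, whose targets include Cish, Socs1 and Bcl2. Interferons act through other receptors: type I interferons assemble a complex with STAT2 and IRF9, which binds interferon-stimulated response elements in promoters, and interferon gamma is made by activated CD8+ T cells themselves. The series compared the cytokines under matched doses and times, and its title asks what separates the functions of IL-2 and IL-15.

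Several of the genes that were higher with IL-15 at high read counts are known to be induced by interferon, so the promoters of a few are shown with the core repeat of the interferon-stimulated response element, GAAANNGAAA, searched on both strands. RefSeq promoter windows of the GRCm38.p6 build were used, cut to the 250 bases before the start of the gene. The deposited tables name a chromosome and strand but no position. Among the 12 antiviral genes that were at least 2-fold higher with IL-15, 8 matched a window and 4 of these held the motif: Rsad2, Oas1a, Bst2 and Isg15. Only windows that held the motif were printed for these genes, so they do not show how frequent it is. Isg15 is listed on chromosome 17 in the deposited tables and on chromosome 4 in RefSeq, and its window is not printed. Each window is written 5′ to 3′ on the strand of the gene, with the motif matches in capitals.
Rsad2 (chr12:26456453-26456702, minus strand): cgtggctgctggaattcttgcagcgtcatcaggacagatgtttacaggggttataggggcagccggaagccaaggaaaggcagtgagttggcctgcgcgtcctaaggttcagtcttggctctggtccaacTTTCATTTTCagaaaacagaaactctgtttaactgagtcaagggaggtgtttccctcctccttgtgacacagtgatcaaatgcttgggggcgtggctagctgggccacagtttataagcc
Oas1a (chr5:120907526-120907775, minus strand): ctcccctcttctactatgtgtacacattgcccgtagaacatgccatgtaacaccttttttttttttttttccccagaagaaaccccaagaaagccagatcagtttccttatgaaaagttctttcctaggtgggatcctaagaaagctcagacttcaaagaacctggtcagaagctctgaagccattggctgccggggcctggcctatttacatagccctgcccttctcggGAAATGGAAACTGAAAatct
Bst2 (chr8:71537473-71537722, minus strand): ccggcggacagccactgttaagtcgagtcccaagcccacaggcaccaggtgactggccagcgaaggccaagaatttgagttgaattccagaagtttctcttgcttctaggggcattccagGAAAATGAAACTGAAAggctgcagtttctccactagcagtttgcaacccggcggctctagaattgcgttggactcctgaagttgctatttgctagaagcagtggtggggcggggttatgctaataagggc
The Rsad2 window holds 1 match, 120 to 111 bases before the start and read on the opposite strand, as TTTCATTTTC. Oas1a holds 2 overlapping matches within the last 20 bases before the start. Bst2 holds 2 overlapping matches between 130 and 115 bases before it. For contrast, the window of Ifng, the interferon gamma gene, is shown with its match to TTCNNNGAA, the core palindrome bound by STAT factors, in capitals.
Ifng (chr10:118440796-118441045, plus strand): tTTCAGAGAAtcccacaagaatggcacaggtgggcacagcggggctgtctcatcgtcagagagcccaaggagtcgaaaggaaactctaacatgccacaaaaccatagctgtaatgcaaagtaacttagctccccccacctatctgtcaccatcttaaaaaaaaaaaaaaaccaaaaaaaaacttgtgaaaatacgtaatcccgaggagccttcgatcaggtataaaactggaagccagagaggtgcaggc
The match in Ifng lies 249 to 241 bases before the start, and this window holds no GAAANNGAAA. Oas1a and Bst2 also hold 1 match each to TTCNNNGAA, at 98 to 90 and 136 to 128 bases before the start. These are not marked above, and the match in Bst2 shares its last 3 bases with the capitals.

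Across genes of high count, GAAANNGAAA was more frequent in windows of the genes that were higher with IL-15. Of the 84 genes with at least 1000 counts that were at least 2-fold higher with IL-15, 69 matched a window and 22 of these (31.9%) held it. Of all 5265 genes at that level, 4241 matched and 175 (4.13%) held it, and 978 (2.98%) of all 32851 tabulated windows did. TTCNNNGAA was in 9 of the 69 (13.0%), in 7.36% of the matched genes at that level and in 7.02% of all windows. A gene was counted if any of its listed windows held the motif, so shares of genes and of single windows are unlike measures. All 10 matched genes of the 12 interferon-inducible GTPase genes held GAAANNGAAA, and several of these genes are near-identical neighbours that share promoter sequence. Fewer than 80% matched for all 11613 compared genes, the 871 genes at least 2-fold higher with IL-15 and the genes lower with it. The same held for the antiviral list and the STAT5 target list. No share is given for these sets, so the contrast above covers only genes with at least 1000 counts. A match is a run of letters and says nothing about binding.

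Most genes had nearly the same level under both cytokines. Of 20418 gene symbols, 11613 had at least 20 counts in the library that was higher, and these were compared as log2 ratios of IL-15 to IL-2 after scaling, with 1 scaled count added to each side. The median ratio was -0.0047, the interquartile range ran from -0.31 to 0.33, and levels as log2(CPM + 1), with CPM the counts per 1000000 of the scaled library size, had a Pearson r of 0.978 across genes, which are not independent replicates. At least 2-fold higher with IL-15 were 871 genes (7.5%), and 673 were at least 2-fold lower (5.8%), 1544 in either direction (13.3%). For 486 and 374 of these the whole counting interval lay past 2-fold. Any excess with IL-15, however small, was seen in 49.6% of the compared genes.

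Differences of 2-fold were most frequent at low read counts, and the balance of directions changed with the count. Between 20 and 100 counts, 50.6% of 1887 genes differed by 2-fold or more, 27.2% higher and 23.4% lower with IL-15. From 100 to 500 counts 16.5% of 2640 genes did, from 500 to 2000 counts 2.54% of 3699, and from 2000 to 10000 counts 1.49% of 2759. Among the 628 genes with at least 10000 counts, 20 were at least 2-fold higher with IL-15 (3.19%) and 0 were at least 2-fold lower. With a minimum of 1000 counts, 84 of 5265 genes were higher (1.6%) and 14 were lower (0.266%), while 48.2% were higher by any amount. With 1 library per cytokine, a response and a difference between library preparations cannot be told apart. Agrn (log2 ratio 1.0037) lay just inside the 2-fold limit at this level and Ifit1 (0.9989) just outside it.

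**Figure D1:**
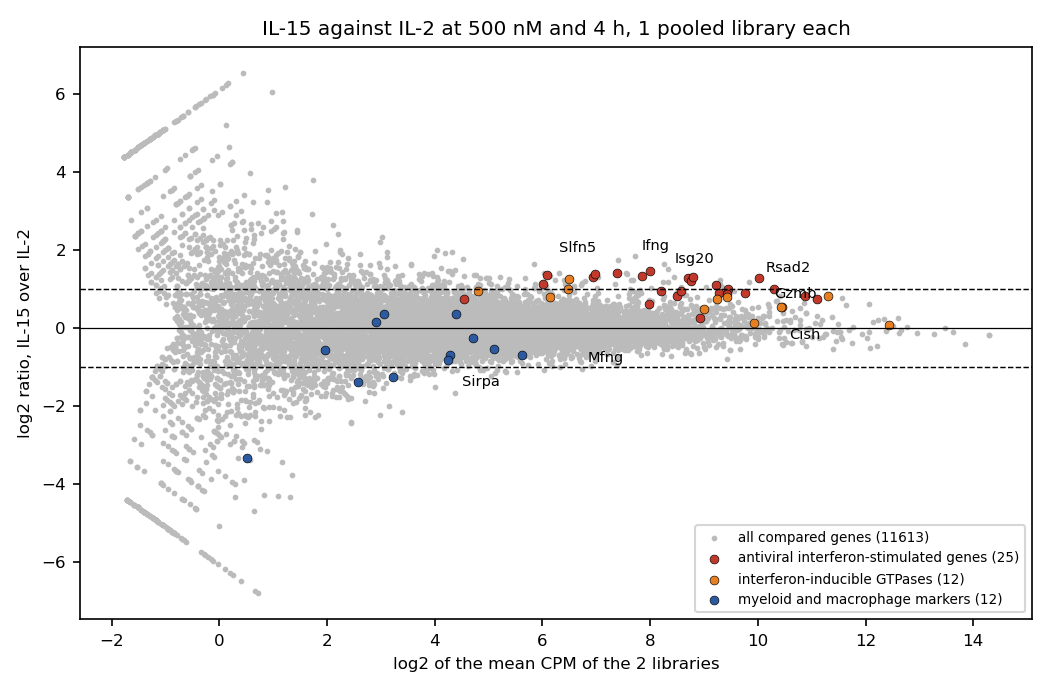
Each point is 1 of 11613 compared genes, placed by the log2 of its mean CPM in the 2 libraries (horizontal axis) and by its log2 ratio of IL-15 to IL-2 (vertical axis), with dashed lines at 2-fold. Ratios spread widely at low levels and narrow at high ones, where the antiviral genes (red) lie together above 0, while most myeloid marker genes (blue) lie below it.

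The libraries held 35524598 counts with IL-15 and 33801754 with IL-2, within the range of 27158143 to 48799962 over all 9, and 12968 and 12894 genes with at least 1 read. T cell identity was alike in both: Cd8a, the CD8 alpha chain, measured 786 CPM with IL-15 and 744 CPM with IL-2, and all 14 T cell identity genes together 5849 and 5318 CPM, with a median log2 ratio of 0.12. Markers of other spleen cells were present in both libraries. B cell markers summed to 468 CPM with IL-15 and 407 CPM with IL-2 (814 untreated), dendritic cell markers to 420 and 342 CPM (750.4 untreated), and myeloid markers to 171 and 241 CPM (2274 untreated). In pooled RNA, fewer cells of a type and less RNA per cell cannot be told apart.

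The antiviral genes were higher with IL-15 throughout, with the highest median of the 36 gene lists apart from a natural killer cell list with 3 compared genes. All 25 members, genes that type I interferons induce and that encode sensors of viral RNA and inhibitors of viral replication, were higher with IL-15, and 12 were at least 2-fold higher. Their median log2 ratio was 1.00, with a range from 0.26 (Irf9) to 1.44 (Oas2), against a median of -0.0047 over all compared genes, of which 7.5% were at least 2-fold higher and 49.6% higher by any amount. Summed over the list, the level was 18345 CPM with IL-15 and 9595 CPM with IL-2, a ratio of 1.91 (1.90 to 1.92), against 1149 CPM in untreated cells. In both 500 nM libraries all 25 genes were above the untreated library and above both 1 nM libraries at 4 h. Relative to untreated cells the median fold over the list was 9.41 with IL-2 and 19.0 with IL-15. These folds share the untreated library and describe where the levels lay.

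The 2'-5' oligoadenylate synthetases, which make the messenger that activates RNase L against viral RNA, included the member with the widest gap. Oas2 measured 373 CPM with IL-15 (366 to 379) and 137 CPM with IL-2 (133 to 141), with 10.6 CPM untreated. The ratio was 2.72-fold (2.63 to 2.82), so the counting intervals of the 2 libraries were far apart. Oas1a measured 605 and 265 CPM, a ratio of 2.28 (2.23 to 2.34). Its near copies Oas1c and Oas1g were also at least 2-fold higher, and reads may be shared among them. Oas3, the third active synthetase, stayed just below 2-fold at 923 and 465 CPM. The synthetase-like genes Oasl1 and Oasl2 measured 388 against 203 CPM and 809.7 against 380.3 CPM.

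Cytosolic sensors of viral RNA were all higher with IL-15, by unequal amounts. Ifih1, which encodes the sensor MDA5, measured 241 CPM with IL-15 and 91.0 CPM with IL-2, a ratio of 2.65 (2.54 to 2.76). Dhx58, which encodes the related regulator LGP2, measured 633 and 258 CPM, a ratio of 2.46 (2.39 to 2.52). Ddx58, which encodes the third member RIG-I, had a smaller ratio of 1.77 (1.72 to 1.81), with 459 and 259.7 CPM. Zbp1, a sensor of Z-form nucleic acids, measured 882 and 487 CPM. Sensor genes thus spanned ratios from 1.77 to 2.65.

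Genes of direct antiviral effectors covered a wide range of levels. Rsad2, which encodes viperin, an enzyme that makes a chain-terminating nucleotide, measured 1465 CPM with IL-15 (1452 to 1478) and 612 CPM with IL-2 (603 to 620.2), with 17.1 CPM untreated, a ratio of 2.39 (2.36 to 2.43). The dynamin-like GTPase genes Mx1 and Mx2, which can share reads, measured 589 against 243 CPM and 182 against 70.6 CPM. Bst2, which encodes tetherin, a protein that holds budding virions at the cell surface, measured 88.0 against 40.8 CPM. Ifit2 was 2.53-fold higher (2.37 to 2.71), at 96.7 against 38.1 CPM. The family members Ifit1 and Ifit3, which bind viral RNA, were 2.00-fold and 1.84-fold higher, at 1689 against 845 and 1124 against 610.4 CPM. Each of these genes had non-overlapping counting intervals in the 2 libraries. The intervals hold counting error only and are narrow at high counts, so small differences can also separate them. The share of all compared genes with such intervals was not computed.

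Genes of the ISG15 conjugation system and of interferon signalling itself also lay above 0. Isg15, a ubiquitin-like modifier, measured 173 CPM with IL-15 and 70.7 CPM with IL-2, a ratio of 2.45 (2.34 to 2.57). Because the deposited chromosome of Isg15 differs from that in RefSeq, these counts may belong to a copy of the gene. Herc5, the gene of a ligase on the list, measured 329 and 132 CPM, a ratio of 2.49 (2.40 to 2.58). Usp18, the protease that removes ISG15 and damps the type I interferon receptor, measured 2390.3 and 1364 CPM, a ratio of 1.75. Irf7, the transcription factor that amplifies type I interferon production, had the highest level on the list at 2738 and 1656 CPM, with 299.7 CPM untreated. Irf9, the DNA-binding subunit of the type I interferon complex, had the smallest ratio, 1.19 (1.17 to 1.22). The transcription factor genes therefore differed less than most of the effector genes.

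**Figure D2:**
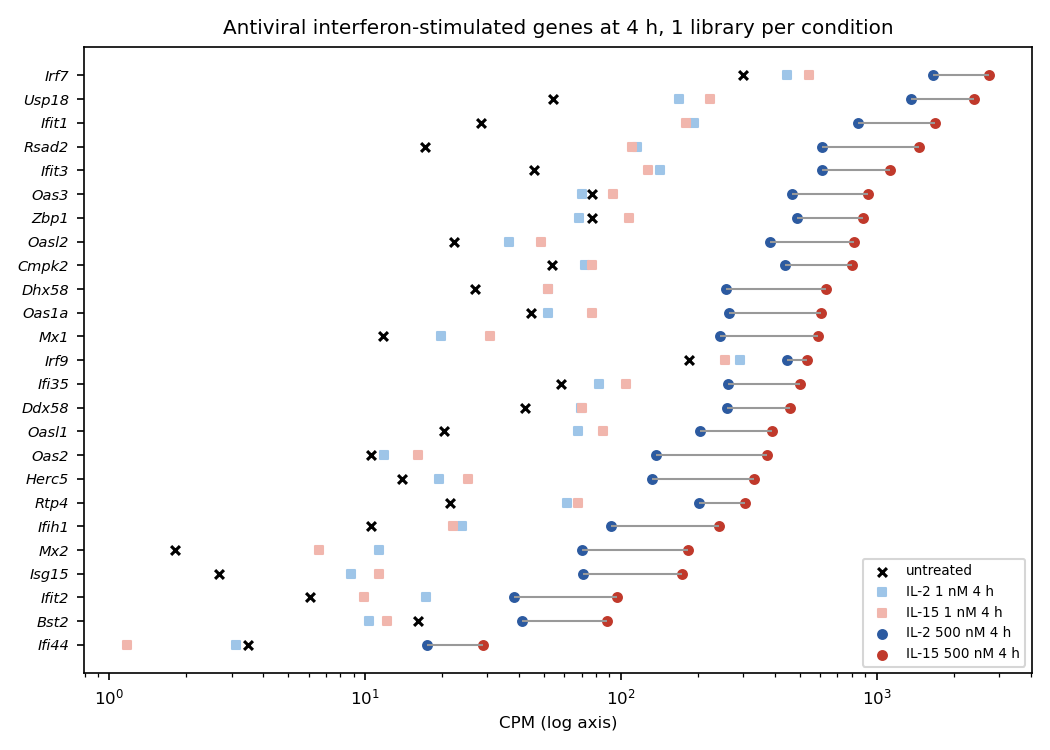
Levels of the 25 antiviral genes (vertical axis, ordered by level with IL-15 at 500 nM) in CPM on a log axis in the 5 libraries that were untreated or treated for 4 h, 1 library per condition. Every red point (IL-15, 500 nM) lies right of its blue point (IL-2, 500 nM), and both lie right of the untreated (cross) and 1 nM (square) points.

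The interferon-inducible GTPases, which attack the membranes of intracellular pathogens and respond strongly to interferon gamma, were higher as well, though less evenly. All 12 genes measured were higher with IL-15 and 1, Iigp1, was at least 2-fold higher, with a median log2 ratio of 0.76. All 12 had at least 1000 counts, where 48.2% of genes were higher and 1.6% by 2-fold (7.5% of all compared genes). Iigp1 measured 127 CPM with IL-15 and 53.6 CPM with IL-2, a ratio of 2.37 (2.24 to 2.51), with 0.387 CPM untreated. The guanylate-binding protein gene Gbp2 measured 3229.8 and 1827 CPM, a ratio of 1.77. At the other end Igtp and Irgm2 had log2 ratios of only 0.08 and 0.11, at 5664 against 5374 CPM and 1009 against 936 CPM. Members of this family resemble one another closely, Tgtp and Tgtp2 above all, and their reads may be split among copies.

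Antigen presentation genes, another interferon-responsive group, differed little. On the class I list, 12 of 14 genes were higher with IL-15, 0 by 2-fold, and the median log2 ratio was 0.19. All 14 had at least 1000 counts, where 48.2% of genes were higher by any amount and 1.6% by 2-fold. Psmb10, an immunoproteasome subunit, stood at 517 against 263 CPM, a ratio of 1.96 (1.91 to 2.02), and Tapbp, the peptide-loading chaperone tapasin, at 2255 against 1451 CPM. The heavy chain genes H2-K1 and H2-D1 had log2 ratios of -0.11 and 0.02. All 10 MHC class II genes were higher with a median of 0.32, beside 49.6% of all compared genes. Ciita, the class II transactivator, measured 16.2 against 8.21 CPM. Class II genes mark B cells and dendritic cells in the mouse, whose marker sums were 468 against 407 CPM and 420 against 342 CPM in the same libraries, and their part in this difference was not tested. The plasmacytoid dendritic cell gene Siglech measured 19.96 against 10.2 CPM, and its part in the interferon genes was not tested either. Of the 7 dendritic cell markers compared, 4 were higher and 3 lower with IL-15, the latter Itgax, Flt3 and Zbtb46. Their median log2 ratio was 0.29, or -0.05 with a minimum of 100 counts. Cst3 alone accounted for 383 and 313 CPM of the 2 dendritic cell sums.

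Beyond the lists, the genes with the highest ratios at 1000 counts or more included several that are known to be induced by interferon. The 84 genes that were 2-fold higher made up 1.6% of the 5265 at that level. Of the 84, 13 belonged to the antiviral or GTPase list, out of 36 members of these lists at that level. In all, 18 of the 84 belonged to any of the 36 lists, out of 346 listed genes at that level. P2ry14, a receptor for UDP-glucose, had the highest ratio, with 31.6 CPM with IL-15 and 8.27 CPM with IL-2, a ratio of 3.82 (3.34 to 4.38). Pik3ap1, an adaptor that recruits PI3 kinase, measured 35.7 and 10.5 CPM, a ratio of 3.40 (3.02 to 3.84). Slfn5, a Schlafen family gene induced by type I interferon, measured 259 and 78.2 CPM, a ratio of 3.31 (3.17 to 3.46). Isg20, an interferon-induced exonuclease, measured 478 and 169 CPM, a ratio of 2.82 (2.74 to 2.91). Samd9l, an antiviral translation inhibitor, measured 86.4 and 27.9 CPM. Mlkl, the effector of necroptotic cell death, measured 30.3 and 10.9 CPM with 0.516 CPM untreated.

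The PYHIN genes, a cluster on chromosome 1 that encodes interferon-inducible DNA-binding proteins, were represented by several members. Pyhin1 measured 459.9 CPM with IL-15 and 149 CPM with IL-2, a ratio of 3.09 (2.99 to 3.19). Ifi204 measured 115 and 43.8 CPM and Ifi203 274 and 105 CPM. Ifi205 and Mnda, of the same cluster, had log2 ratios of 1.12 and 1.14. These genes are alike in sequence, and how reads that fit several of them were assigned is not given in the sources used here. Ms4a4c and Phf11, both known as interferon-responsive, were 2.64-fold and 2.63-fold higher.

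A few other genes at this level have known roles in T cell activation or costimulation. Cd69, an early activation marker that is also induced by type I interferon, measured 873 CPM with IL-15 and 423 CPM with IL-2, a log2 ratio of 1.05. Cblb, a ubiquitin ligase that restrains T cell activation, measured 79.4 and 36.8 CPM. Cd86, a costimulatory ligand, measured 58.3 against 24.8 CPM, a ratio of 2.35 (2.17 to 2.56). Cd69 and Cblb were named after their values were seen.

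Ifng had the second highest ratio of the genes with at least 1000 counts. It measured 331 CPM with IL-15 (325 to 337) and 93.1 CPM with IL-2 (89.9 to 96.5), from 11336 and 3074 counts, a ratio of 3.55 (3.41 to 3.70). Untreated cells held 1.00 CPM, and the 1 nM libraries at 4 h held 0.830 CPM with IL-15 and 1.91 CPM with IL-2. At 500 nM for 24 h the order was opposite, with 54.4 CPM with IL-15 and 265 CPM with IL-2, and at 1 nM for 24 h the values were 1.61 and 8.85 CPM. The library of IL-15 at 500 nM for 4 h was thus the highest of the 9 for this gene, followed by IL-2 at 500 nM for 24 h.

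The other cytotoxic effector genes differed by less. Of 19 genes 15 were compared, 13 were higher with IL-15, 2 by at least 2-fold (Ifng and Tnfsf10), 0 lower by 2-fold, and the median log2 ratio was 0.53. Over all compared genes 7.5% were at least 2-fold higher and 49.6% higher by any amount. Tnfsf10, which encodes the death ligand TRAIL, measured 78.7 and 37.3 CPM, a ratio of 2.11 (1.97 to 2.26). Gzmb, the protease granzyme B, measured 1408 CPM with IL-15 and 933 CPM with IL-2, a ratio of 1.51 (1.49 to 1.53), against 8.88 CPM untreated. Gzmc measured 20.6 and 11.0 CPM, Gzma had a log2 ratio of 0.57 and Fasl, the Fas ligand, 0.75. Prf1, the pore-forming protein perforin, went the other way by a small margin, with 78.2 and 84.4 CPM. Granzymes C to G are close copies, and those with few reads were not compared.

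**Figure D3:**
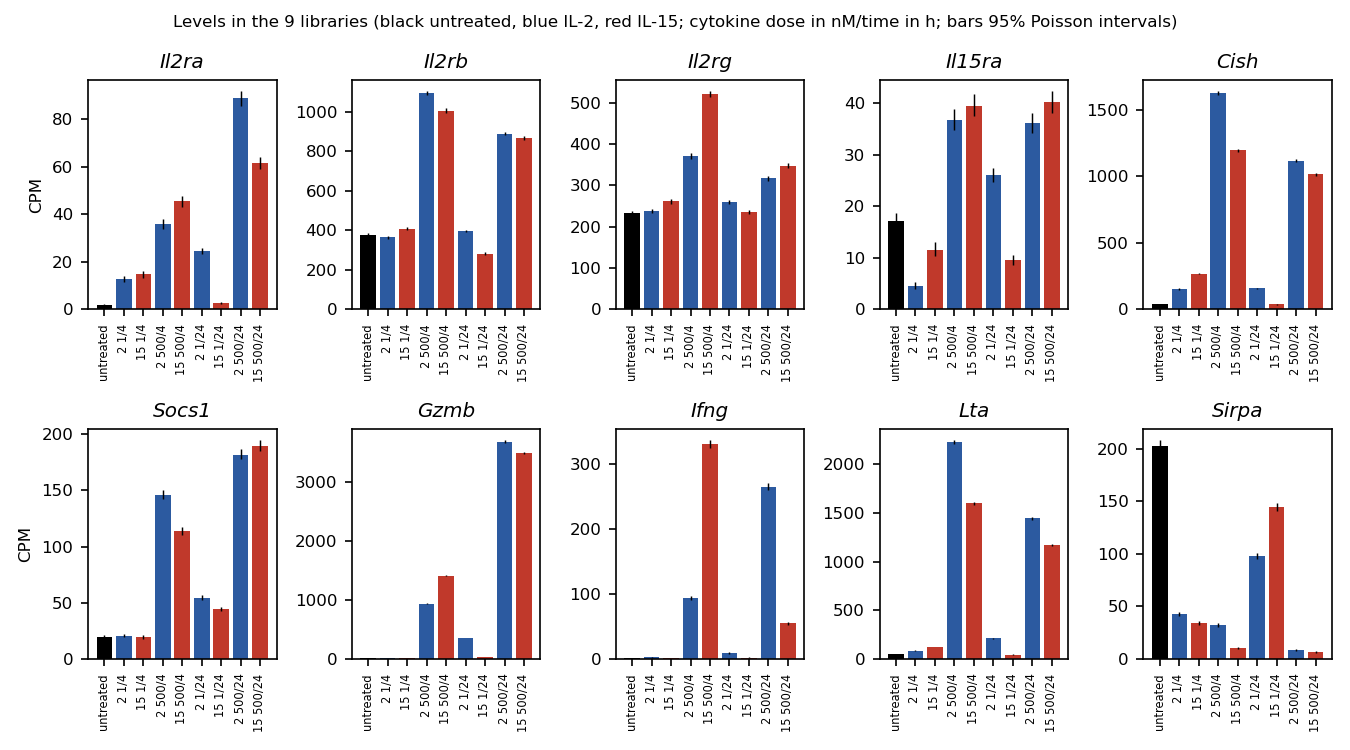
CPM of 10 genes in all 9 libraries, 1 panel per gene with its own axis from 0, black for untreated, blue for IL-2 and red for IL-15, with 95% Poisson intervals of the counts as error bars. Ifng is highest with IL-15 at 500 nM for 4 h (331 CPM), while Cish and Lta are highest with IL-2 at 500 nM for 4 h (1626 and 2230.3 CPM).

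The receptor chains of both cytokines had similar levels. Of 20 cytokine receptor chains 19 were compared, 0 passed 2-fold in either direction, and the median log2 ratio was -0.04. At least 1000 counts were reached by 16 chains, a level where 1.6% of all genes were 2-fold higher and 0.266% lower. Il2rb, the chain that both cytokines share, measured 1007 CPM with IL-15 and 1096 CPM with IL-2, and Il2rg, the common gamma chain, 521 and 371 CPM. The private chains Il2ra and Il15ra measured 45.5 against 35.9 CPM and 39.5 against 36.8 CPM. The ratio of Il15ra, 1.07, had a counting interval that included 1 (0.994 to 1.16). The largest ratios on the list belonged to Il6st, the signalling chain gp130, at 170.0 against 91.8 CPM, and to Il12rb2, a chain of the IL-12 receptor, at 147 against 81.5 CPM. Il7r, the IL-7 receptor chain of resting T cells, measured 125 and 80.0 CPM.

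STAT5 targets and feedback genes did not share the excess of the interferon genes. Of 18 genes 8 were higher and 10 lower with IL-15, 0 passed 2-fold, and the median log2 ratio was -0.10. Of all genes with at least 1000 counts, 48.2% were higher with IL-15, 1.6% by 2-fold, and 0.266% were 2-fold lower. Cish, whose protein feeds back on the JAK-STAT signal, measured 1192 CPM with IL-15 and 1626 CPM with IL-2, 1.36-fold higher with IL-2 (1.35 to 1.38), against 39.6 CPM untreated. Lta, which encodes lymphotoxin alpha, measured 1600.1 and 2230.3 CPM, and Socs1, another feedback inhibitor, 114 and 146 CPM, both also higher with IL-2. In the other direction lay Gadd45g, a stress-response gene, with 160.4 against 99.7 CPM, and Pim1, a survival kinase, with 33.4 against 20.03 CPM. Myc and Lif were 1.07-fold and 1.15-fold higher with IL-15, Osm was 1.10-fold higher with IL-2, and Bcl2, the survival gene, measured 580.1 and 689 CPM. The JAK kinase and STAT genes were all 11 higher with IL-15, 0 by 2-fold, with a median of 0.23, and Stat2, an interferon signalling factor, had the highest ratio at 611 against 439 CPM.

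Genes of metabolism and growth lay near 0 or slightly below. Of 18 genes of amino acid transport and the ATF4 response, which supply amino acids to growing cells, 17 were lower with IL-15. The median log2 ratio was -0.20, and 1 was 2-fold lower (Ddit4, with 17 and 37 counts). Over all compared genes 49.6% were higher with IL-15 by any amount and 5.8% were 2-fold lower. Slc1a4, a neutral amino acid transporter, measured 22.4 against 38.8 CPM, and Mthfd2, a mitochondrial folate enzyme, 419.5 against 615 CPM. Of 17 cholesterol synthesis genes 12 were lower, 0 by 2-fold, with a median of -0.24. The unfolded protein response genes split: Xbp1, its transcription factor, measured 330.4 against 521 CPM and Herpud1 336 against 535 CPM, while the chaperone gene Hspa5 measured 977 against 699 CPM. Ribosomal protein genes (median 0.02, 30 genes), respiratory chain genes (0.02, 24 genes), glycolysis genes (-0.06, 17 genes) and ribosome biogenesis genes (-0.09, 22 genes) had 0 members past 2-fold.

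DNA replication genes were split between a group of well-counted genes near 0 and a few genes, mostly of low count, that were higher with IL-15. Of 24 genes 6 were at least 2-fold higher with IL-15, beside 7.5% of all compared genes, 0 were 2-fold lower, and the median log2 ratio was 0.05. Of the 10 with at least 1000 counts 1 was 2-fold higher, Rfc3, a subunit of the clamp loader, with 76.8 CPM with IL-15 and 37.9 CPM with IL-2, a ratio of 2.03 (1.89 to 2.17). The replication factor Mcm10 and the thymidylate synthase gene Tyms had 158 against 53 and 138 against 50 counts, in the range from 100 to 500 counts where 8.94% of all genes were at least 2-fold higher. The proliferation marker Mki67 had 219 and 96 counts. Of 16 genes for G1 cyclins, their kinases and inhibitors, 0 were 2-fold higher and 1, E2f1, was lower, and Cdkn1a, the inhibitor p21, measured 103 against 62.5 CPM.

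Most chemokine and costimulatory genes were slightly higher with IL-15, and few passed 2-fold. On the list of chemokines and their receptors 14 of 18 genes were compared, 11 were higher by any amount (49.6% of all compared genes), 2 were at least 2-fold higher (7.5% of all), and the median log2 ratio was 0.44. Cxcl10, an interferon-induced chemokine that attracts activated T cells, measured 1261 CPM with IL-15 and 563 CPM with IL-2, a ratio of 2.24 (2.20 to 2.28), with 3.0 CPM untreated. The other was the chemokine receptor gene Ccr4, with 54 and 0 counts. Cxcl9, a relative of Cxcl10, measured 155 against 96.2 CPM. Of 15 compared costimulatory and inhibitory receptor genes 12 were higher by any amount, 2 by 2-fold (Cd80 and Cd86), 1 was 2-fold lower (Havcr2), and the median was 0.31. The costimulatory genes Icos and Tnfrsf9 (4-1BB) measured 39.7 against 24.8 and 110.2 against 67.6 CPM, and Havcr2, which encodes the inhibitory receptor TIM-3, 1.14 against 4.85 CPM. The 11 ERK feedback genes, which include inhibitors of the MAP kinase pathway, held 3 genes that were 2-fold lower with IL-15, Dusp4, Spry1 and Spry4, and 2 that were 2-fold higher, Spry2 and Spred2, all with fewer than 500 counts in each library. Of all compared genes 13.3% differed by 2-fold, and 50.6% of those with 20 to 100 counts. Of 18 transcription factor genes of effector and memory cells 2 of low count were at least 2-fold higher, Maf with 53 against 10 counts and Ikzf2 with 224 against 107, 0 were 2-fold lower, and the median was -0.05. The better counted genes had small ratios, with Eomes at 683 against 499 CPM and Tbx21 (T-bet) at 207 against 235 CPM.

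**Figure D4:**
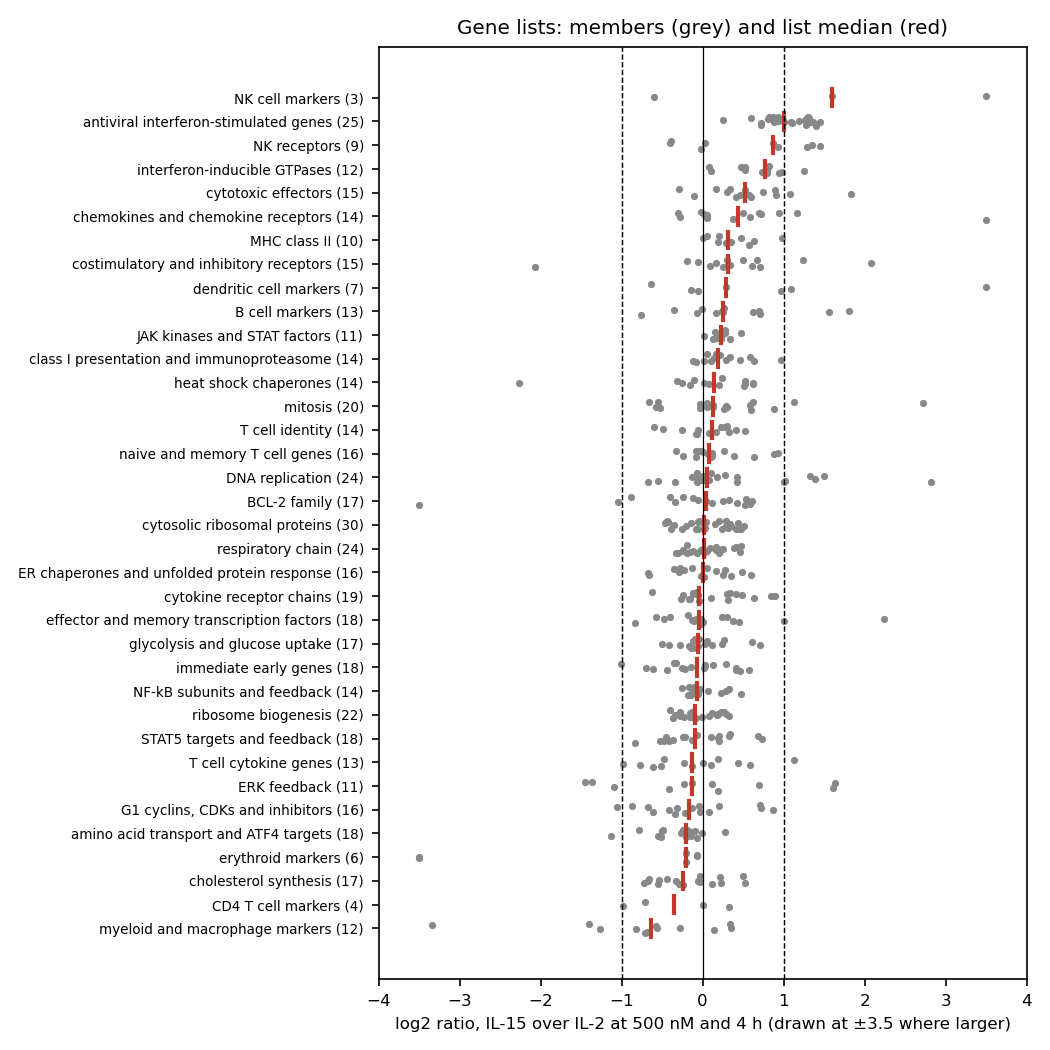
Log2 ratios of IL-15 to IL-2 at 500 nM for 4 h (horizontal axis) for the compared members of the 36 lists (vertical axis, number compared in parentheses), grey for members and red for the list median, with dashed lines at 2-fold. The antiviral, GTPase, JAK and STAT, and MHC class II lists lie wholly to the right of 0. The myeloid markers lie mostly to the left, and most other medians lie near 0.

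At 1000 counts or more, 14 genes were at least 2-fold lower with IL-15, and the first of them is a myeloid gene. Sirpa, a receptor of macrophages and dendritic cells, measured 9.98 CPM with IL-15 (8.95 to 11.1) and 31.7 CPM with IL-2 (29.8 to 33.7), 3.18-fold higher with IL-2 (2.81 to 3.60), with 203 CPM untreated. Fcna, a ficolin made by spleen macrophages, measured 18.7 and 37.9 CPM, with 358 CPM untreated. On the myeloid list 12 of 17 genes were compared, 3 were 2-fold lower with IL-15, among them Cd14 and Emr1, 0 were 2-fold higher, 9 were lower by any amount, and the median log2 ratio was -0.63, beside 5.8% of all compared genes lower by 2-fold. Emr1, which encodes F4/80, measured 5.46 against 13.1 CPM. The complement gene C1qc measured 37.1 against 60.7 CPM. The lysozyme genes Lyz1 and Lyz2 went the other way, with log2 ratios of 0.36 and 0.34. Both treated libraries held far less of these markers than the untreated one, and their part in other differences was not tested.

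The remaining genes of this group have no single theme. Gdf15, a stress-induced cytokine, measured 24.9 CPM with IL-15 and 54.2 CPM with IL-2, 2.18-fold higher with IL-2 (2.01 to 2.36). Mfng, a glycosyltransferase that modifies Notch, measured 68.9 and 143 CPM. Gne, the first enzyme of sialic acid synthesis, measured 21.5 and 47.9 CPM, and Slc17a9, a vesicular nucleotide transporter, 53.1 and 108 CPM. Nfic, Rab32, Sh3bp1, Capn12 and Akap9 were between 2.07-fold and 2.21-fold higher with IL-2.

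Markers of natural killer cells, which express many of the same effector genes, had few counts apart from Tyrobp. Of 6 natural killer cell markers 3 were compared, with a median log2 ratio of 1.59. At least 2-fold higher with IL-15 were 2 of them, Klrb1c and Klra8, both with fewer than 100 counts. The defining genes Ncr1 and Itga2 were at 0 counts in both libraries. Klrb1c had 34 counts with IL-15 and 2 with IL-2, Klra8 24 and 7, and Tyrobp, also a myeloid gene, 350 and 511. Summed, the list went the other way, with 12.1 CPM with IL-15, 16.2 CPM with IL-2 and 98.0 CPM untreated. Of 10 NK receptor genes that some CD8+ T cells also carry, 9 were compared and 3 were at least 2-fold higher with IL-15, with a median log2 ratio of 0.86, or 0.46 with a minimum of 100 counts. These 3 had fewer than 500 counts, and 27.2% of all genes with 20 to 100 counts and 8.94% of those with 100 to 500 were 2-fold higher. Klrd1, which encodes CD94, measured 4.03 against 1.45 CPM. Summed, this list measured 33.7 and 31.2 CPM, a ratio of 1.08 whose interval included 1 (0.990 to 1.17). The median and the sum of this list therefore gave different pictures, and the Klr genes are close relatives whose reads may be shared.

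The genes with the widest ratios, ranked by the bound of the counting interval nearest 1 among genes with at least 100 counts, were poorly expressed. On the higher side, Lcat, an enzyme of lipoprotein metabolism, had 118 and 9 counts. Wwc2, N4bp2, Setmar, Fndc3b, Zfp101, Armcx6, Srbd1, Gstm4, Stom, Cnrip1, Mpp6, Mybpc3 and Nicn1 also stood there, with ratios between 4.64 and 10.1. On the lower side stood Aldh1a2, which makes retinoic acid, with 0 counts with IL-15 and 105 with IL-2. Set against a floor of 3 counts it was 36.3-fold higher with IL-2, without its counting error. Wap, Csn2, Utp14b, Fut7, Creb3l2, Abhd15, Ptgis, Tmem159, Cep78, H1f0, Acsl3, Zfp326, Atp6v1g2 and Sepsecs completed that 15. For comparison, 16.5% of genes with 100 to 500 counts differed by 2-fold in these 2 libraries. Fut7, which builds selectin ligands on T cells, had 6 and 134 counts.

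The other 3 matched pairs of IL-15 and IL-2 libraries share no library with this one. Log2 ratios of genes with at least 1000 counts in both pairs had a Pearson r across genes of 0.163 with the pair at 500 nM for 24 h (4638 genes), -0.158 with that at 1 nM for 4 h (4818 genes) and -0.175 with that at 1 nM for 24 h (5056 genes). Of the 84 genes that were higher at 500 nM for 4 h, 49 had at least 1000 counts in the 500 nM pair at 24 h, and 39 of these (79.6%) were again higher by any amount, against 46.1% of all genes compared, with 1 of them past 2-fold (background 0.151%). At 1 nM for 24 h 46 had the counts, and 11 (23.9%) were higher with IL-15, against 47.6%. At 1 nM for 4 h 17 of 36 (47.2%) were higher, against 53.1%. In these pairs 7.4%, 15.4% and 13.8% of genes with at least 20 counts differed by 2-fold either way, and 48.9%, 49.2% and 48.9% were higher with IL-15 by any amount.

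The antiviral list followed this order. Its median log2 ratio was 1.00 at 500 nM for 4 h, 0.38 at 500 nM for 24 h (24 of 25 higher with IL-15), 0.23 at 1 nM for 4 h (17 of 25) and -0.50 at 1 nM for 24 h (4 of 25). The GTPase list had medians of 0.76, -0.02, -0.11 and -1.96 in the same order, and at 1 nM for 24 h 0 of its 12 genes were higher with IL-15. The cytotoxic list had medians of 0.53, -0.10, 0.05 and -0.39. Slfn5 was higher with IL-15 in all 4 pairs, with log2 ratios of 1.73, 0.91, 1.11 and 0.87. Gzmb was 0.59 at 500 nM for 4 h and -0.08 at 500 nM for 24 h. How these differences between pairs compare with the spread between repeats was not tested, since no pair was repeated.

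**Figure D5:**
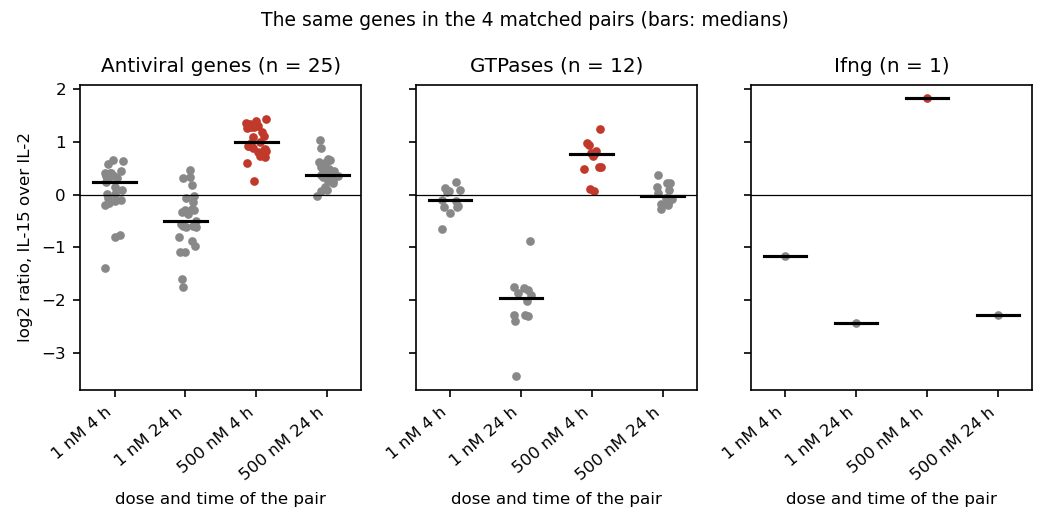
Log2 ratios of IL-15 to IL-2 (vertical axis) in the 4 matched pairs (horizontal axis: dose and time) for the 25 antiviral genes, the 12 GTPase genes and Ifng, red for 500 nM for 4 h, with black bars at the medians. The pair at 500 nM for 4 h has the highest median of each list and the highest value of Ifng, and at 1 nM for 24 h the GTPase genes lie below 0.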

How the data were processed

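RNA was sequenced from pooled CD8+ T cells, 1 library for each of 9 conditions. Per the submitters' processing notes, CASAVA 1.8 and Bowtie 0.12.4 were used with the mm8 build. Per the labels' protocols, cDNA from 3 pooled samples was amplified by PCR before and after fragmentation. The authors deposited, per the file headers, raw counts of tags and RPKM values (made by the authors from counts and exon length) for 24373 RefSeq transcripts of 20418 symbols. Whether counting used strand, and how reads that fit several places were handled, is not stated. RPKM values were not compared.

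For each symbol the transcript with the highest mean count over the 9 libraries was taken, and 33 symbols whose counts equal those of another are not named. Library sizes were scaled by TMM (edgeR 4.0.16, R 4.3.3) on 13479 genes kept by filterByExpr (minimum count 10, total 15). CPM are counts per 1000000 of the scaled size. A gene was compared with at least 20 counts in the higher library, its log2 ratio used 1 added scaled count, and past 2-fold means a log2 ratio of at least 1 in size. Intervals of levels are exact Poisson and of ratios exact conditional binomial intervals (scipy 1.17.1), 95%, on counts without the added count. Ratios against 0 counts use a floor of 3 counts. No replicate exists, so no p-value was computed. The script was tested on simulated counts.

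Named genes are the 15 highest and 15 lowest by the interval bound nearest 1 among genes with at least 100 counts, up to 4 members per list, and 23 fixed genes. The 15 highest and lowest with at least 1000 counts were added after the data were seen, as were other names outside this rule (among them single list members past 2-fold). The lists and members were chosen with earlier results of these data known. The 36 lists hold 580 names, 576 of them in the files. Promoters came from RefSeq tables by accession or symbol (16071 genes matched). Alternatives were library totals, DESeq2 1.42.0 size factors, quantile normalization, other minimum counts, folds and offsets, and sums over transcripts. Results for a few genes are not reported here.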

Additional observations from a re-analysis of the deposited data

Results flagged for a closer look

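Genes named by rule, with at least 100 counts in both pairs, and lists whose IL-15 to IL-2 ratio had the opposite sign in another matched pair were picked out, where both values were past 2-fold for a gene or, for a list, the share of compared members that were higher with IL-15 differed by at least 75 percentage points. Of the 871 genes called higher and 673 called lower at 500 nM for 4 h, 723 and 555 were also compared at 1 nM for 24 h. There 146 and 99 were past 2-fold the opposite way and 126 and 100 the same way. Of all genes compared in both pairs, 4.5% were 2-fold higher and 6.9% lower at 1 nM for 24 h. At 1 nM for 4 h 682 and 526 were compared, 145 and 86 were opposite and 98 and 112 the same. The shares of all genes were 4.9% higher and 6.2% lower. At 500 nM for 24 h 621 and 474 were compared, 56 and 62 were opposite and 72 and 53 the same. The shares of all genes were 3.2% higher and 2.7% lower. None of these differences between pairs was tested, since each pair is 1 library per side.

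Ifng, with a log2 ratio of 1.83 at 500 nM for 4 h, was -2.28 at 500 nM for 24 h and -2.44 at 1 nM for 24 h. At 1 nM for 24 h the following named genes that were higher with IL-15 at 500 nM for 4 h were lower with it: the interferon-inducible genes Iigp1 (-3.45), Cxcl10 (-2.81), Oasl2 (-1.75), Mlkl (-1.52) and Mx1 (-1.09), and the replication genes Mcm10 (-2.70) and Tyms (-1.14). In the other direction, Havcr2 (2.60), Atp6v1g2 (1.47), Gdf15 (1.12) and Creb3l2 (1.10) were higher with IL-15 at 1 nM for 24 h and lower at 500 nM for 4 h. At 1 nM for 4 h, 3 named genes with low counts were opposite: Nicn1 (-3.67), Zfp101 (-1.29) and Setmar (-1.24).

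For 4 lists the median log2 ratio at 1 nM for 24 h was below 0 while that at 500 nM for 4 h was above it. The antiviral list went from 1.00 to -0.50, the GTPases from 0.76 to -1.96, the class I presentation genes from 0.19 to -0.59 and the MHC class II genes from 0.32 to -0.34.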

How the results depend on the processing

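The 871 genes that were at least 2-fold higher with IL-15 and the 673 that were lower became 1503 and 1460 with no filter on low counts, 358 and 232 with a minimum of 100 counts, 1697 and 1459 at a fold of 1.5, 438 and 364 at a fold of 3, and 486 and 374 where the whole counting interval had to lie past 2-fold. Scaling by library total (853 and 691), DESeq2 size factors (874 and 670) or quantiles (827 and 698), an offset of 10 (727 and 564) and sums over transcripts (893 and 717) moved them by less than 1.5 times. The share of calls that were higher ran from 50.7% to 60.7%, with 56.4% as reported. Of 91 named genes past 2-fold, 89 were so under each of the 3 other scalings, and 91 kept their sign under these, the offset of 10 and the sums over transcripts. The antiviral list had 11 to 13 members past 2-fold and 25 of 25 higher under these 5 and with a minimum of 100 counts. The natural killer cell list, at 1.59 over 3 genes, had a median of -0.60 with a minimum of 100 counts, which left Tyrobp alone. No paired analysis was possible because each group is 1 library without a replicate number, and no replicate could be left out for the same reason. At 20 to 100 counts 50.6% of genes differed by 2-fold, so low-count genes are not resolved by 1 library a side.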

Other observations

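Transcripts of milk proteins, which the spleen is not known to make, were among the genes lower with IL-15. The 6 genes Wap, Csn2, Csn1s1, Csn1s2a, Csn3 and Glycam1, named after their values were seen, had 11 counts together with IL-15 and 308 with IL-2 at 500 nM for 4 h, 29.1-fold higher with IL-2 (16.0 to 58.9). Untreated cells held 13.6 CPM of the 6 genes. For IL-2 the sum was 3.55 CPM (1 nM, 4 h), 25.1 CPM (1 nM, 24 h), 9.33 CPM (500 nM, 4 h) and 2.63 CPM (500 nM, 24 h). The corresponding IL-15 libraries held 0.906, 2.49, 0.321 and 0.0297 CPM. In each of the 4 matched pairs the library of IL-2 held more. Wap itself had 0 counts with IL-15 and 109 with IL-2, 37.7-fold more with IL-2 against a floor of 3 counts, without its counting error.

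Ifnb1, the gene of interferon beta, had 17 counts with IL-15 and 0 with IL-2 at 500 nM for 4 h. Untreated cells held 0 counts of it. Against a floor of 3 counts it was 5.46-fold higher with IL-15, without its counting error. Ifnb1 lay below the minimum count set for comparing genes, and no background share is given at that level. The receptor genes of interferon beta were alike in both libraries, with Ifnar1 at 229.6 against 223 CPM and Ifnar2 at 242 against 261 CPM. These genes were named after their values were seen.

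Of the 6 erythroid genes compared, 2 were at least 2-fold lower with IL-15 (5.8% of all compared genes). Both had between 20 and 100 counts in the higher library, where 23.4% of all genes were 2-fold lower. Klf1, their master transcription factor, had 0 counts with IL-15 and 57 with IL-2, and Alas2, the first enzyme of heme synthesis in red cells, 2 and 37. The alpha and beta globin genes, each tabulated under 2 symbols with equal counts, had log2 ratios of -0.07 and -0.21.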
